A study of Mus musculus with 4 samples.

Results

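Different passages of wild-type E14 mouse embryonic stem cells were compared through their poly(A) RNA. The library labelled passage 42 was set against the library labelled passage 33, 2 of the 4 libraries in the series. Of the 43629 gene identifiers counted, 9577 reached 10 CPM (counts per 1000000 counts of the library) in at least 1 of these 2 libraries and were compared. Both samples are wild type on a 129/Ola background, derived from blastocyst and grown in serum plus LIF, and their titles mark them as re-used samples. The other 2 libraries, used here only as a reference, are Drosha knockout 1 and Drosha knockout 2, both labelled passage 7, on the same background and medium. Knockout 1 lacks the Pro-rich region and knockout 2 the R/S-rich region of DROSHA, the nuclease that cuts primary microRNA transcripts, per the design text. Passage number, culture history, date of harvest and library preparation cannot be told apart between the wild-type libraries. There was 1 library per passage, so no difference could be set against a spread between replicates and no p-value is given. Intervals below are exact 95% intervals that cover counting error only.

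Mouse embryonic stem cells are kept in the pluripotent state by OCT4, SOX2 and NANOG, and LIF sustains the naive state through STAT3. In serum, cells move between naive and more primed states, and a few express primitive endoderm genes such as Gata4, Gata6 and Dab2 or genes of the early cleavage embryo such as Zscan4. During long culture, embryonic stem cell lines are known to gain or lose whole chromosomes and, in male lines, the Y chromosome. RNA counts over all genes of a chromosome show whether its genes are jointly higher or lower; the number of chromosome copies was not measured here. In bulk RNA, fewer cells of a type and less RNA per cell cannot be told apart.

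Library totals were 40139219 counts at passage 33 and 39657578 at passage 42, so 10 CPM stood for about 401 and 397 counts. The knockout libraries held 29264632 and 42322129 counts. The genes compared took 98.1% of the counts at passage 33 and 98.5% at passage 42. Just inside the level lay Igsf8, at 8.72 and 10.01 CPM, and just outside it Slc25a26, at 9.99 and 7.46 CPM. The ratio of the wild-type libraries moved with the GC content of the transcript. Its median log2 value was 0.24 in the tenth of genes with the lowest GC content and -0.60 in the tenth with the highest. Against exon length the medians lay between -0.19 and 0.01. Both wild-type libraries had a GC trend against the mean of the knockouts, from 0.37 to -0.77 at passage 33 and from 0.61 to -1.40 at passage 42, while the knockouts differed from each other by 0.04 to -0.07. Values are therefore also given with smooth trends of GC content and exon length removed, for the 9550 genes that have both; how much of a GC-linked difference is technical was not tested.

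**Figure D1:**
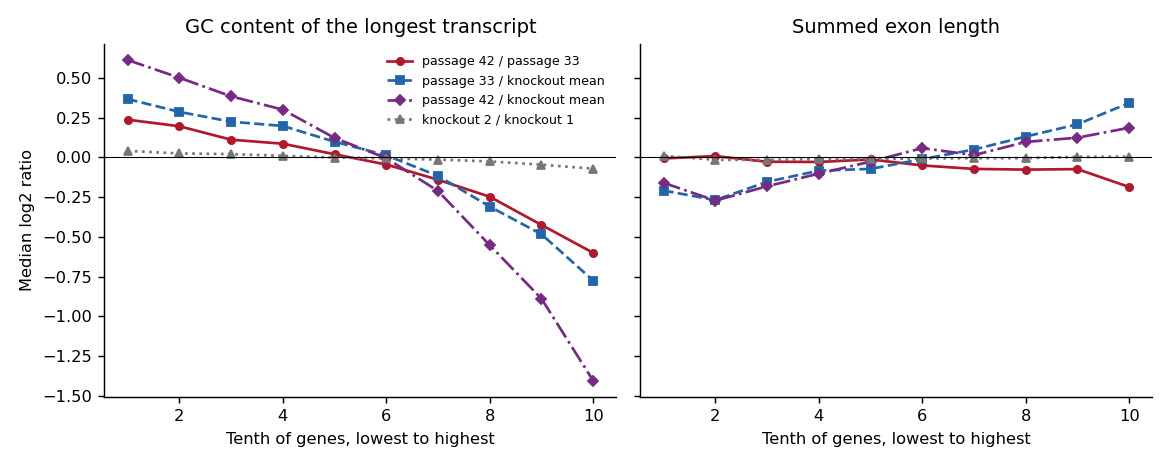
Median log2 ratio (vertical axis) of the genes compared, split into 10 equal groups by GC content of the longest transcript (left) or by summed exon length (right). Points are medians of about 955 genes for 4 pairs of libraries. The ratio of passage 42 to passage 33 goes from 0.24 to -0.60 with GC content, and the knockout pair stays near 0.

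Over all genes compared, more were lower than higher at passage 42. The median log2 ratio of passage 42 to passage 33 was -0.05, and the middle 90% of genes lay between -1.21 and 0.78. At least 2-fold higher were 227 genes (2.37%) and at least 2-fold lower 761 (7.95%). With the trends removed these counts were 231 (2.42%) and 431 (4.51%). Between the knockout libraries 0 of the same genes differed 2-fold, and the middle 90% lay between -0.13 and 0.12. The level of 10 CPM was reached at passage 42 alone by 268 genes, of which 78 were 2-fold higher, and at passage 33 alone by 759, of which 367 were 2-fold lower. Such genes passed through the library in which they were high. Of the 8550 genes that reached it in both, 149 were 2-fold higher and 394 lower. The split depended on scaling. With TMM scaling 384 genes were 2-fold higher and 583 lower, so that 39.7% of them were higher instead of 23.0%, and the median of all genes moved from -0.05 to 0.09.

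Chromosome 1 and chromosome 15 stood apart from the other chromosomes. The 583 genes compared on chromosome 1 had a median log2 ratio of 0.55, and 471 of them (80.8%) were above 0. With the trends removed the median was 0.56, with 486 (83.4%) above 0. The 401 genes of chromosome 15 had a median of -0.70, with 36 (8.98%) above 0, and a median of -0.54 with the trends removed. Medians of the other 18 chromosomes, X among them, lay between -0.23 and 0.11, and between -0.08 and 0.05 with the trends removed. Y and the mitochondrial chromosome are left out of these ranges. The 13 mitochondrial genes had a median of -0.11, or -0.46 with the trends removed. On chromosome 1, 82 genes were 2-fold higher and 18 lower (14.1% and 3.09% of its genes). On chromosome 15, 1 was higher and 138 lower (0.249% and 34.4%). Genes of chromosome 1 took 6.78% of all counts at passage 33 and 9.97% at passage 42, against 6.09% and 6.15% in the knockouts. Genes of chromosome 15 took 5.76% at passage 33 and 3.87% at passage 42, against 6.17% and 6.13%. For both chromosomes, then, the passage 33 share lay nearer to the knockout libraries and the passage 42 share outside the range of the other 3 libraries.

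**Figure D2:**
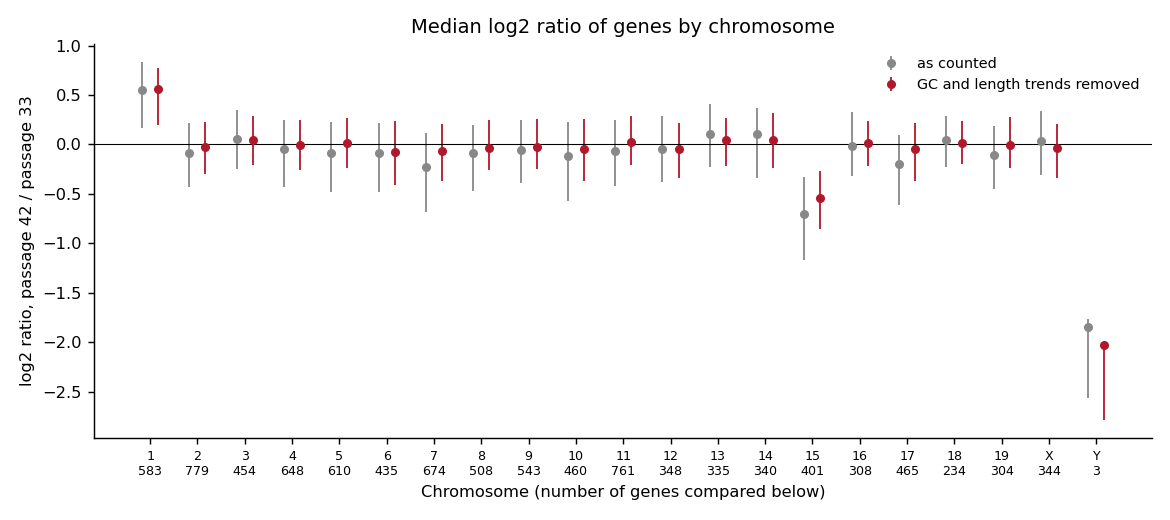
Median log2 ratio of passage 42 to passage 33 (points, vertical axis) by chromosome, with bars from the lower to the upper quartile of its genes, as counted (grey) and with GC and length trends removed (red). Chromosome 1 lies at 0.55 and 0.56, chromosome 15 at -0.70 and -0.54, and Y rests on 3 genes.

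Measured against the mean of the knockouts with trends removed, the passage 33 medians of chromosomes 1 and 15 were 0.02 and -0.07. At passage 42 they were 0.50 and -0.64. Over the other 18 chromosomes the same medians ran from -0.05 to 0.09 at passage 33 and from -0.09 to 0.06 at passage 42. The knockouts differed from each other by -0.01 to 0.00 on each of the 20 chromosomes. Genes of low and of high level shared both shifts. In 3 equal groups of chromosome 1 genes, from low to high mean CPM, the medians with trends removed were 0.49, 0.54 and 0.61, and on chromosome 15 they were -0.66, -0.48 and -0.47. Without any gene past 2-fold the medians as counted were 0.49 and -0.50. Protein-coding genes had medians of 0.57 on chromosome 1 (532 genes) and -0.71 on chromosome 15 (388 genes). The 51 genes of other types on chromosome 1 had a median of 0.10, and the 13 on chromosome 15 one of 0.02. Most of these are pseudogenes, whose reads can come from a parent gene on another chromosome.

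The shifts ran along both chromosomes in nearly all windows measured. Stretches with fewer than 10 genes were left out. In windows of 10 Mb with at least 10 genes, all 18 windows of chromosome 1 had a median above 0, from 0.20 to 0.82. All 9 windows of chromosome 15 had a median below 0, from -1.05 to -0.30. With the trends removed, 17 of 18 windows of chromosome 1 were above 0 (-0.04 to 0.75) and the 9 of chromosome 15 lay between -0.61 and -0.43. The exception on chromosome 1, from 20 to 30 Mb (build mm10), held 17 genes. Its 9 protein-coding genes had a median of 0.43 with trends removed and its 8 pseudogenes one of -0.21. Of 218 windows on the other chromosomes 110 were above 0 and 108 below, and the middle 90% lay between -0.19 and 0.14 with trends removed.

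**Figure D3:**
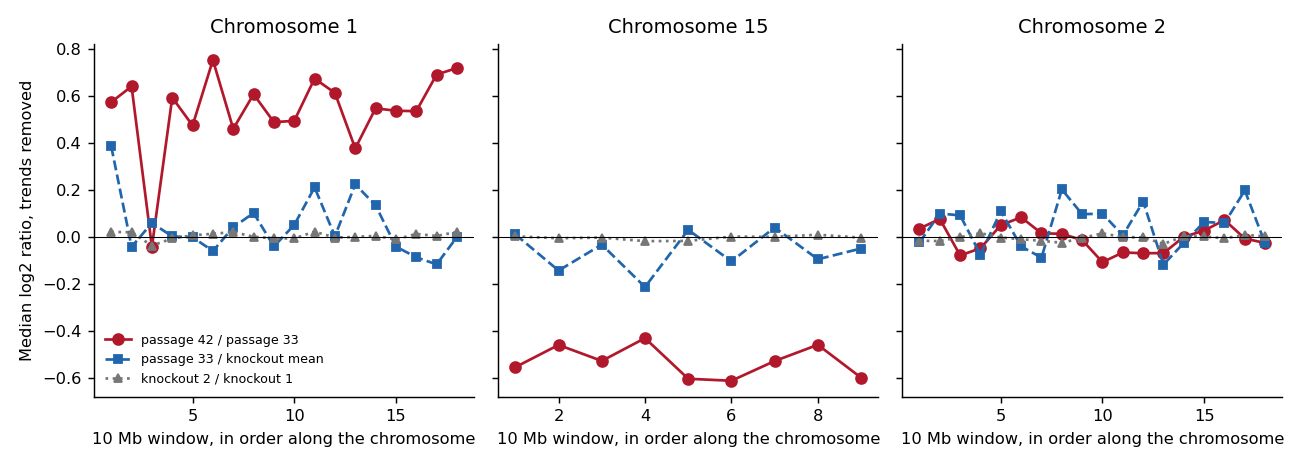
Median log2 ratio with GC and length trends removed (vertical axis) in 10 Mb windows of at least 10 genes, in order along chromosomes 1, 15 and, for comparison, 2. Passage 42 over passage 33 (red) stays between -0.04 and 0.75 on chromosome 1 and between -0.61 and -0.43 on chromosome 15, while passage 33 over the knockout mean (blue) and knockout 2 over knockout 1 (grey) stay closer to 0.

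Abundant genes of chromosome 1 showed its shift at high depth. Positions are of build mm10, from GENCODE M21. Ncl (ENSMUSG00000026234, chromosome 1, 86344719 to 86359400), which encodes the nucleolar protein nucleolin, had 4393 CPM at passage 33 and 7857 CPM at passage 42, a log2 ratio of 0.84 (0.83 to 0.85), with 3174 and 3377 CPM in the knockouts. Hspd1 and Hspe1, which encode the mitochondrial chaperonin and its partner and lie side by side, went from 1386 to 2300 CPM (0.73) and from 251 to 506 CPM (1.01). Rpl7, a protein of the large ribosomal subunit, had 1296 and 2267 CPM (0.81). Trip12, a ubiquitin ligase, had 1222 and 1675 CPM (0.45). In each of these 5 genes the passage 42 library was the highest of the 4. The pseudogene Eif4a-ps4 had 1570 and 1681 CPM (0.10). Farthest from passage 33 on this chromosome were Msc (3.61), Vash2 (2.70) and the stress-induced transcription factor gene Atf3, at 4.33 and 18.7 CPM (2.10). Msc, Vash2 and Atf3 reached 10 CPM at passage 42 alone.

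Among the 18 genes of chromosome 1 that were 2-fold lower against its general direction were Rcsd1 (-3.88), Ptprv (-3.16) and Lemd1 (-2.70), here named after their values were seen. Rcsd1, Ptprv and Lemd1 reached 10 CPM at passage 33 alone. Ptpn14, which encodes a phosphatase of the Hippo pathway, had 82.5 CPM at passage 33 and 13.6 CPM at passage 42 (-2.60), with 49.5 and 49.0 CPM in the knockouts.

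Abundant genes of chromosome 15 were mostly lower. Pabpc1 (ENSMUSG00000022283, chromosome 15, 36595661 to 36609668), the cytoplasmic poly(A)-binding protein, had 4486 CPM at passage 33 and 2996 CPM at passage 42, a log2 ratio of -0.58 (-0.59 to -0.57), with 3989 and 4056 CPM in the knockouts. The translation initiation factor gene Eif4b had 1474 and 1000 CPM (-0.56), and the chaperonin subunit gene Cct5 had 1130 and 821 CPM (-0.46). In these 3 genes the passage 42 library was the lowest of the 4. Pcbp2, a poly(C)-binding protein, had 1129 and 1171 CPM (0.05). The farthest genes were Wnt7b (-4.30), Parvg, which encodes parvin gamma (-3.49), and the glycosyltransferase gene Galnt6 (-3.31). Wnt7b, Parvg and Galnt6 reached 10 CPM at passage 33 alone. Dab2 was the gene of this chromosome that was 2-fold higher, and it is described below with the endoderm genes.

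The Y chromosome differed as well, through few genes. Ddx3y (ENSMUSG00000069045, chromosome Y, 1260771 to 1286629), an RNA helicase, had 101 CPM at passage 33, 10.4 CPM at passage 42 and 113 and 116 CPM in the knockouts, a log2 ratio of -3.27 (-3.43 to -3.13). Eif2s3y, a translation initiation factor subunit, had 58.7, 18.1, 84.8 and 88.5 CPM in the same order (-1.69, with -1.82 to -1.58). The histone demethylase gene Uty had 33.1, 9.18, 30.7 and 33.8 CPM (-1.85). All of these were lowest at passage 42 and none was at 0 there. Below 10 CPM, Uba1y had 9.02 and 1.08 CPM at passages 33 and 42, and Zfy1 4.36 and 0.378 CPM. The Y pseudogene Gm20775, which can share reads with copies elsewhere, had 2.19 and 2.45 CPM. The X-linked counterpart Ddx3x had 1235 and 1451 CPM, a ratio of 0.23 that was -0.02 with the trends removed. Xist, the RNA that silences an X chromosome in female cells, had 1.37 and 0.126 CPM.

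**Figure D4:**
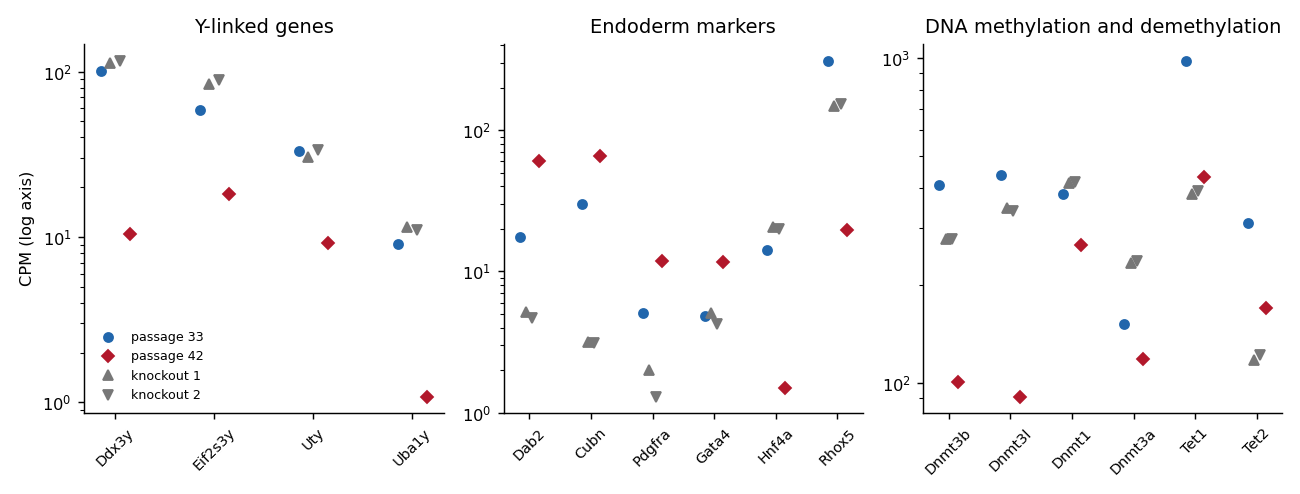
CPM on a log axis in the 4 libraries (passage 33 blue circles, passage 42 red diamonds, knockouts grey triangles) for Y-linked genes, endoderm markers and genes of DNA methylation. The Y-linked genes are lowest at passage 42, Dab2 and Cubn are highest there, and Dnmt3b and Dnmt3l are lowest there.

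The knockout libraries lay nearer to passage 33 than to passage 42 at most genes that differed. Among the 988 genes past 2-fold between the passages, the mean log2 level of the knockouts was nearer to passage 33 at 808 (81.8%) and nearer to passage 42 at 180. This held for 167 of the 227 higher genes and 641 of the 761 lower genes. It held for 87 of 100 such genes on chromosome 1 and 127 of 139 on chromosome 15. Off chromosomes 1, 15 and Y it was 591 of 746 genes (79.2%), so the 3 chromosomes did not supply the result alone. With the trends removed from the distances it was 715 of 982. With knockout 1 alone the count was 810, and with knockout 2 alone 806. Over all genes compared, the median absolute log2 distance from the knockout mean was 0.36 for passage 33 and 0.54 for passage 42, or 0.26 and 0.33 with the trends removed. The knockouts differ from both wild-type libraries in genotype and passage, so these distances describe the 4 libraries and not a wild-type norm.

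The 10 genes farthest below passage 33 were not all lowest at passage 42. Except for Klhl13 and Rhox5, they reached 10 CPM at passage 33 alone, so a lower value at passage 42 was built in. Klhl13, an X-linked adaptor of a CUL3 ubiquitin ligase, had 521 CPM at passage 33 and 31.0 CPM at passage 42, with 290 and 295 CPM in the knockouts (-4.07, with -4.15 to -3.99). Rhox5, an X-linked homeobox gene, had 309, 19.5, 148 and 152 CPM in the same order (-3.98). Plekhg1 had 143, 8.40, 55.97 and 52.97 CPM (-4.09). Usp26, an X-linked deubiquitinase known from testis, differed in kind. It had 90.9 CPM at passage 33 but 4.64, 3.45 and 3.14 CPM in the other 3 libraries (-4.28), so passage 33 was the high one. Dglucy, a mitochondrial enzyme of D-glutamate breakdown, had 26.6, 1.26, 11.3 and 11.7 CPM (-4.34). The others were Gm28625 (-4.69), the ligand gene Wnt7b (-4.30), the G protein regulator Rgs9 (-4.07), the p53 relative Trp73 (-3.99) and Rcsd1 (-3.88), with 10.3 to 16.4 CPM at passage 33 and 0.353 to 0.782 CPM at passage 42.

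Of the 10 genes farthest above passage 33, all but Stra8 and Dmrt1 reached 10 CPM at passage 42 alone. For those a higher value at passage 42 was built in. Stra8, which retinoic acid induces before meiosis, had 10.02 CPM at passage 33 and 119 CPM at passage 42, with 35.6 and 37.8 CPM in the knockouts (3.56, with 3.42 to 3.72). Dmrt1, a transcription factor of the testis, had 12.6, 84.7, 65.0 and 63.3 CPM (2.75). For Dmrt1 passage 33 was the low library, and the other 3 lay close together. Tgfbi, a matrix protein, had 3.41, 31.5, 18.66 and 17.04 CPM (3.19). Hal, which encodes histidine ammonia-lyase, had 3.76, 32.4, 5.60 and 6.14 CPM (3.09). The cytochrome P450 gene Cyp2b23 (3.66), Msc, a repressor of the basic helix-loop-helix family (3.61), Miip (3.18), the myelin gene Mobp (2.78), Vash2 (2.70) and 1700030C10Rik (2.51) completed the group, all under 4 CPM at passage 33 and between 11.95 and 22.4 CPM at passage 42.

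Promoters with few CG made up a larger share of the genes that differed than of all genes, a difference that was not tested. Mammalian promoters are often CpG islands, rich in the dinucleotide CG at which DNA is methylated. The RefSeq promoter window, from 250 bases before to 50 bases after the start, was matched for 6446 of the 9577 genes within 500 bases of the annotated start. At most 5 CG, a limit chosen after the values were seen, were present in 4.19% of them. The share was 10.4% among the matched genes that were 2-fold higher (15 of 144) and 11.2% among those 2-fold lower (51 of 457), and the median number of CG was 22 over all, 23 among the higher and 20 among the lower genes. Of the 12 of the 20 farthest genes with a matched window, Dglucy, Usp26, Cyp2b23 and Mobp had such a promoter, and they are shown with Trp73, which holds 39 CG, for contrast. Every CG is in capitals. The sequences are from build GRCm38.p6, 5′ to 3′ on the strand of the gene: Dglucy at chr12:100778807-100779106 (plus strand), Usp26 at chrX:51801184-51801483 (minus), Cyp2b23 at chr7:26686381-26686680 (minus), Mobp at chr9:120149492-120149791 (plus) and Trp73 at chr4:154139826-154140125 (minus).
Dglucy: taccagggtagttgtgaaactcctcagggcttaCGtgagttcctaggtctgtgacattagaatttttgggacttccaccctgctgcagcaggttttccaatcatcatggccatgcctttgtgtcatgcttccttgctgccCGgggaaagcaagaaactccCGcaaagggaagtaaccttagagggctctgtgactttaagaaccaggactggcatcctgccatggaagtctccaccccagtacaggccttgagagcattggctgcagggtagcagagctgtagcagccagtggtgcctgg
Usp26: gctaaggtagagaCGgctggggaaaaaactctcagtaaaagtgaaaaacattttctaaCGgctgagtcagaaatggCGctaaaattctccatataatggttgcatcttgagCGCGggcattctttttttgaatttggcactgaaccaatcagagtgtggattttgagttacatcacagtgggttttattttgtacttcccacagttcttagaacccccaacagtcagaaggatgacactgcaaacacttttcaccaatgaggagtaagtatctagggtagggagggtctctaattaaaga
Cyp2b23: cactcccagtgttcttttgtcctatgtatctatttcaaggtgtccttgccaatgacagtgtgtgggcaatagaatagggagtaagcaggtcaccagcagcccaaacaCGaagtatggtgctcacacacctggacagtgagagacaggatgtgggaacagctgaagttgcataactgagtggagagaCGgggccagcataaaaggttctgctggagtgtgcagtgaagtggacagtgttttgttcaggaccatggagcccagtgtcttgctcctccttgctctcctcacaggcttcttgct
Mobp: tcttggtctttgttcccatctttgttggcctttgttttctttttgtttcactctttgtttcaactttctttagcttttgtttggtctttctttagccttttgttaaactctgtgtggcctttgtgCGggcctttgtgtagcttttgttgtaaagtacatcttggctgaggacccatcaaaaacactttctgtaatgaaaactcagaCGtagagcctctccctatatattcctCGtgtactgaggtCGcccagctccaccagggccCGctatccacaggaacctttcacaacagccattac
Trp73: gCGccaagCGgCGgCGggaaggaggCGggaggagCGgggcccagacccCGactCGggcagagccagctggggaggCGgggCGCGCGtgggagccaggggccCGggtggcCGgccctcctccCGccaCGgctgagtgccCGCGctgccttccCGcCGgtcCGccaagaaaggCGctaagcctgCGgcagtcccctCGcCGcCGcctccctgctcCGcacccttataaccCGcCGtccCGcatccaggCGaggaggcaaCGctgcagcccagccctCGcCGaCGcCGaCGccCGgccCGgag

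Motifs of 4 factors were searched in the same windows on both strands. The GATA motif AGATAA was present in 5.07% of all matched promoters, 5.56% of the higher and 4.38% of the lower genes. The octamer ATGCAAAT bound by OCT4 was in 1.30%, 2.08% and 3.28%, the HIF motif ACGTGC in 9.23%, 13.9% and 6.35%, and the ATF4 motif TGATGCAA in 0.481%, 0.694% and 0.438%. A match is a description of the letters and not a site.

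Pluripotency genes, the defining markers of the labelled cell type, were expressed at both passages. All 16 core genes compared lay within 2-fold, with a median log2 ratio of -0.06 (-0.02 with trends removed), near that of all genes. Pou5f1, which encodes OCT4, had 843 CPM at passage 33 and 479 CPM at passage 42, with 1194 and 1163 CPM in the knockouts (-0.82, or -0.43 with trends removed). Sox2 went the other way, from 318 to 589 CPM (0.89, or 0.79), with 494 and 488 CPM in the knockouts. Nanog had 612 and 653 CPM (0.09, turning to -0.20). The passages thus differed in the proportion of Pou5f1 to Sox2 mRNA while Nanog stayed close.

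Naive pluripotency genes were uneven around a median of -0.16 over 21 genes, with 1 at least 2-fold higher and 2 lower. These counts are near the shares over all genes, 2.37% and 7.95%. Klf4 (ENSMUSG00000003032, chromosome 4, 55527143 to 55532466), a target of LIF and STAT3, had 151 CPM at passage 33, 485 CPM at passage 42 and 159 and 150 CPM in the knockouts (1.69, with 1.65 to 1.73). Passage 42 was the library apart, and the other 3 lay together. Zfp42, which encodes REX1, had 682 and 672 CPM (-0.02). Dppa3, also called Stella, a protector of maternal methylation, had 14.4, 1.87, 18.8 and 18.6 CPM (-2.91), and Mylpf 112, 50.1, 122 and 125 CPM (-1.16). Among the 12 LIF targets compared, Klf4 included, 1 was 2-fold higher and 0 lower, and Socs3, the feedback inhibitor of the pathway, had 91.1 and 64.7 CPM (-0.49).

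Formative epiblast genes come on as naive cells move towards differentiation. Their median was -0.19 over 13 genes, with 1 higher and 3 lower, against 2.37% and 7.95% of all genes. Grhl2, an epithelial transcription factor on chromosome 15, had 103 and 14.6 CPM (-2.81), with 40.3 and 40.6 CPM in the knockouts. Enpp3 had 61.5 and 10.5 CPM, with 62.8 and 63.9 CPM in the knockouts (-2.54). Otx2 had 23.6 and 31.0 CPM (0.39), and Sox4 11.0 and 28.8 CPM (1.39).

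De novo DNA methyltransferase genes were among the abundant genes that differed. Dnmt3b (ENSMUSG00000027478, chromosome 2, 153649450 to 153687730) had 407 CPM at passage 33, 100.4 CPM at passage 42 and 277 CPM in each knockout (-2.02, with -2.07 to -1.97). Dnmt3l (ENSMUSG00000000730, chromosome 10, 78041947 to 78063622), its catalytically inactive partner, had 438, 90.9, 346 and 338 CPM (-2.27, with -2.32 to -2.22). For both genes passage 42 was the lowest library, and the knockouts lay between, nearer to passage 33. Dnmt3a had 152 and 119 CPM (-0.35, or 0.17 with trends removed), and the maintenance enzyme gene Dnmt1 had 383 and 266 CPM (-0.52, or -0.13). Of the TET genes, whose products oxidise methylated cytosine, Tet1 had 982, 432, 383 and 390 CPM (-1.19) and Tet2 312, 171, 118 and 122 CPM (-0.87), so for these passage 33 was the high library. Over the 13 genes of DNA methylation and demethylation the median was -0.56 (-0.46 with trends removed), with 0 at least 2-fold higher and 5 lower, 3 with trends removed. Among all genes compared 2.37% were higher and 7.95% lower, 4.51% with trends removed. DNA methylation itself was not measured.

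Primitive endoderm genes went both ways. Of 25 matched, 11 were compared, with 5 at least 2-fold higher and 3 lower, against 2.37% and 7.95% of all genes. Their median of 0.23 turned below 0 under 2 of 10 alternative settings. Dab2, an endocytic adaptor, had 17.6 CPM at passage 33, 60.0 CPM at passage 42 and 5.16 and 4.70 CPM in the knockouts (1.76, with 1.65 to 1.89). The endocytic receptor gene Cubn had 29.7, 65.5, 3.14 and 3.12 CPM (1.14). The transcription factor gene Gata4 had 4.83, 11.7, 5.09 and 4.25 CPM (1.27), the growth factor receptor gene Pdgfra 5.03, 11.8, 2.02 and 1.30 CPM (1.22) and Srgn, a secretory proteoglycan, 2.49, 11.98, 0.649 and 0.969 CPM (2.24). These last 3 passed the level of 10 CPM through passage 42 alone, so a difference in that direction was built in. For Dab2, Cubn, Pdgfra and Srgn the order was passage 42, then passage 33, then both knockouts.

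The other 14 members lay below that level, and the transcription factor genes Gata6, Sox7 and Sox17 among them had the same order. Gata6 had 3.41 CPM at passage 33 and 8.02 CPM at passage 42, Sox7 2.82 and 8.35 CPM, and Sox17 0.598 and 2.37 CPM. The members of the list that were 2-fold lower were Rhox5 (309 and 19.5 CPM, -3.98), Hnf4a and Apoe. Hnf4a, a regulator of visceral endoderm, had 14.2, 1.49, 20.7 and 19.8 CPM (-3.21) and reached 10 CPM at passage 33 alone. The lipid carrier gene Apoe had 148, 51.4, 366 and 354 CPM (-1.53). Lrp2 stayed close, with 123 and 117 CPM (-0.08). Afp and Ttr had at most 1 count in either wild-type library. The summed level of the list was 769 CPM at passage 33 and 480 CPM at passage 42, against 726 and 714 CPM in the knockouts. Of 17 basement membrane genes, which parietal endoderm makes in quantity, 0 were 2-fold higher and 2 lower, with a median of 0.02. Over all genes compared 2.37% were higher and 7.95% lower. With trends removed 4 of the 17 were higher and 1 lower, against 2.42% and 4.51% of all genes, with a median of 0.23. The 4 were the collagen IV genes Col4a2 (0.54 as counted, 1.38 with trends removed) and Col4a1 (0.46 and 1.13), the fibronectin gene Fn1 (0.67 and 1.16) and the collagen chaperone gene Serpinh1 (0.69 and 1.01). The laminin gene Lama1 had 135 and 158 CPM against 38.1 and 38.5 CPM in the knockouts, and Lama5 had 228 and 50.5 CPM (-2.17, or -1.23).

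Markers of other cell types differed widely in level. Of the 19 genes of primitive streak and mesoderm 0 reached 10 CPM. Dcn, Lum and Postn, markers of fibroblasts, had 0 counts in both wild-type libraries, which allows up to 3 counts in each. The 4 of 17 fibroblast and feeder genes that were compared were all below 0 without reaching 2-fold (median -0.58). Of these 4, 2 reached 10 CPM at passage 33 alone. The summed level of that list was 167 CPM at passage 33 and 112 CPM at passage 42, against 246 and 236 CPM in the knockouts. Of 18 neurectoderm and neuronal genes 6 were compared, with 0 at least 2-fold higher and 2 lower, against 2.37% and 7.95% of all genes. The 2 lower genes, Neurod1 and Ncam1, reached 10 CPM at passage 33 alone, so their direction was built in. The neuronal gene Stmn2, a regulator of microtubules, had 360 and 319 CPM, with 442 and 449 CPM in the knockouts (-0.18). Of 16 trophoblast genes 3 were compared, with 0 higher and 1 lower against the same shares. The lower one, Krt8, reached 10 CPM at passage 33 alone. The transcription factor gene Tfap2c had 37.6 CPM at both passages. The leukocyte gene Ptprc had 1 count in each wild-type library. Of the blood list Laptm5 (108 and 34.5 CPM) and Cd68 (14.8 and 6.98 CPM) were compared and were 2-fold lower. Cd68 reached 10 CPM at passage 33 alone, so its direction was built in. Zscan4 genes of the state that resembles the early cleavage embryo were all under 10 CPM. Zscan4c had 1.395 CPM at passage 33 and 2 counts at passage 42, and Zscan4d 1.37 CPM and 3 counts. These genes have near-identical copies, so single members are uncertain.

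Epithelial genes were lower at passage 42, with 0 of 12 at least 2-fold higher, 5 lower and a median of -0.89 (-0.61 with trends removed). The shares over all genes compared were 2.37% higher and 7.95% lower. Of the 12, 4 reached 10 CPM at passage 33 alone and 1 at passage 42 alone. Cldn4, a tight junction protein, had 68.9, 14.5, 130 and 125 CPM (-2.25), and Krt8, a keratin gene of chromosome 15, 14.03, 4.26, 15.6 and 14.3 CPM (-1.71). Esrp1, a splicing factor of epithelia, had 62.1 and 20.2 CPM (-1.62). Cdh1, which encodes E-cadherin, did not share the direction, with 481 and 480 CPM (0.00). Of the 12 genes, 3 lie on chromosome 15, and off chromosomes 1, 15 and Y the median was -0.57. Mesenchymal genes were not the mirror of this: 0 of 9 were 2-fold higher and 2 lower, S100a6 (-2.43) and Ccn2 (-1.89).

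Targets of p53 were lower as well, with a median of -0.88. Of 17, 1 was at least 2-fold higher and 5 lower, against 2.37% and 7.95% of all genes. With trends removed 0 were higher and 6 lower, with a median of -0.67. Gtse1, which lies on chromosome 15, had 287 and 87.3 CPM (-1.71). Trp53inp1, which encodes a p53-induced nuclear protein, had 477 and 181 CPM, with 265 and 273 CPM in the knockouts (-1.40). Ccng1, which encodes cyclin G1, had 364 and 197 CPM (-0.88), Mdm2, the ubiquitin ligase of p53, 214 and 127 CPM (-0.75), and Trp53 itself 313 and 278 CPM (-0.17). Pmaip1, which encodes NOXA, went the other way, with 28.8 and 65.5 CPM (1.18). Off chromosomes 1, 15 and Y the median was -0.75.

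Cholesterol synthesis genes were higher at passage 42, the highest median of the lists with at least 5 genes compared. Of 21 genes 17 were above 0. At least 2-fold higher were 5 (3 with trends removed) and 0 were lower, against 2.37% and 7.95% of all genes. The median was 0.73, against -0.05 for all genes, and lay between 0.69 and 0.89 under 10 alternative settings. Insig1 (ENSMUSG00000045294, chromosome 5, 28071363 to 28078662), the sterol-regulated retention protein, had 48.1 and 141 CPM, with 107 and 109 CPM in the knockouts (1.55, with 1.47 to 1.62). Msmo1, a sterol demethylase, had 97.9, 247, 117 and 118 CPM (1.34), and Idi1, isopentenyl diphosphate isomerase, 21.5, 48.6, 21.7 and 22.8 CPM (1.18). Srebf2, the transcription factor of the pathway, lies on chromosome 15 and had 207 and 113 CPM, with 416 and 387 CPM in the knockouts (-0.87, or -0.19 with trends removed). The knockouts lay near passage 33 for Msmo1 and Idi1 and between the passages for Insig1. Over the whole list they lay between the passages, with a median log2 ratio to the mean of the knockouts of -0.36 at passage 33 and 0.38 at passage 42. The summed level of the list was 1906 CPM at passage 33, 2885 CPM at passage 42 and 2662 and 2630 CPM in the knockouts.

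The sterol response element TCACNCCAC, which SREBP proteins bind, was found in 1 of the 14 promoters of this list that were matched, that of Hmgcs1, and in 0.993% of all matched promoters. Hmgcs1, which encodes HMG-CoA synthase, had 291 and 433 CPM (0.57). Its promoter at chr13:119690101-119690400 (plus strand, build GRCm38.p6) is shown with the element in capitals, and the element begins 137 bases before the start.
Hmgcs1: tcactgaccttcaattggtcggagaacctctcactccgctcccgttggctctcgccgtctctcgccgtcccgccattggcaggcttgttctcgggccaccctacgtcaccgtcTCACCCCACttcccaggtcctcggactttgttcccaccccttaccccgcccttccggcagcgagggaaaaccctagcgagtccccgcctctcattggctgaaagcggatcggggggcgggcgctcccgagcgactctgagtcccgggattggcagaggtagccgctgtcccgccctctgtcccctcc

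NODAL pathway genes separated into inhibitors that were higher and a ligand and a matrix gene that were lower. Lefty2 and Lefty1, feedback inhibitors of NODAL on chromosome 1, had 27.0 and 92.6 CPM (1.78) and 6.28 and 13.6 CPM (1.11). Both were still below the knockouts, at 159 and 158 CPM and at 120 and 114 CPM. Nodal itself had 32.8, 10.4, 36.3 and 34.0 CPM (-1.65). Ccn2, a matrix protein induced by TGF-beta and YAP, had 48.4 and 13.01 CPM (-1.89). Of 12 genes 2 were higher and 3 lower, against 2.37% and 7.95% of all genes, with a median of 0.01.

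Stress pathways differed from each other. Of 16 genes of the unfolded protein response 14 were above 0 with 0 past 2-fold either way, and their median was 0.31. With trends removed 10 were above 0, with a median of 0.13. Of all genes compared 4365 of 9577 were above 0, or 4674 of 9550 with trends removed. Hspa5, the chaperone BiP, had 732 and 1027 CPM (0.49). Among 20 targets of ATF4, which answers amino acid shortage, 3 were higher and 1 lower with a median of 0.11, against 2.37% and 7.95% of all genes. With trends removed 4 were higher and 0 lower. Among the 3, Slc7a11 and Atf3, a stress-induced transcription factor gene, reached 10 CPM at passage 42 alone. Atf3 had 4.33 and 18.7 CPM (2.10). The cystine transporter gene Slc7a11 had 6.20 and 19.3 CPM, with 2.32 and 2.67 CPM in the knockouts (1.63), while Atf4, on chromosome 15, had 464 and 287 CPM (-0.69).

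Housekeeping groups stayed close to the median of all genes. Cytosolic ribosomal protein genes had a median of -0.02 over 73 genes, with 1 higher and 3 lower, against 2.37% and 7.95% of all genes. Nuclear genes of oxidative phosphorylation had a median of 0.06 over 66 genes. Against the same shares, 0 were higher and 4 lower, or 0 and 0 with trends removed. Among the lower genes, Rpl36, Ndufb7 and Ndufs7 reached 10 CPM at passage 33 alone. Rpl8, on chromosome 15, had 1377 and 534 CPM (-1.37). Many ribosomal protein genes have processed pseudogenes, so single members are uncertain. Among 22 genes of G2 and mitosis 0 passed 2-fold in either direction. The remaining lists are given by their counts of genes 2-fold higher and lower, against 2.37% and 7.95% of all genes. Of 22 genes of glycolysis and lactate transport 1 was higher and 1 lower, of 26 genes of the G1 to S cell cycle 2 and 2 (2 and 1 with trends removed), of 16 hypoxia genes 0 and 1, and of 11 heat shock genes 1 and 1 (0 and 0 with trends removed). Of 12 ERK targets 0 were higher and 0 lower, of 8 WNT targets 0 and 1 (1 and 1 with trends removed), and of 7 BMP targets 0 and 1. Of 11 mitochondrially encoded genes 0 were higher and 1 lower, mt-Nd5, a subunit of complex I with 2912 and 1288 CPM (-1.18). The median of these 11 was -0.07, but -0.46 with trends removed, where 0 of them lay above 0. Of 19 genes of the microRNA pathway 0 were higher and 3 lower, and Ago2 (642 and 286 CPM, -1.17), Tarbp2 (-1.33) and Tnrc6b (-1.34) all lie on chromosome 15. With trends removed Tarbp2 alone of these was past 2-fold. Drosha lies there too and had 362 and 324 CPM (-0.16), against 166 CPM in each knockout.

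**Figure D5:**
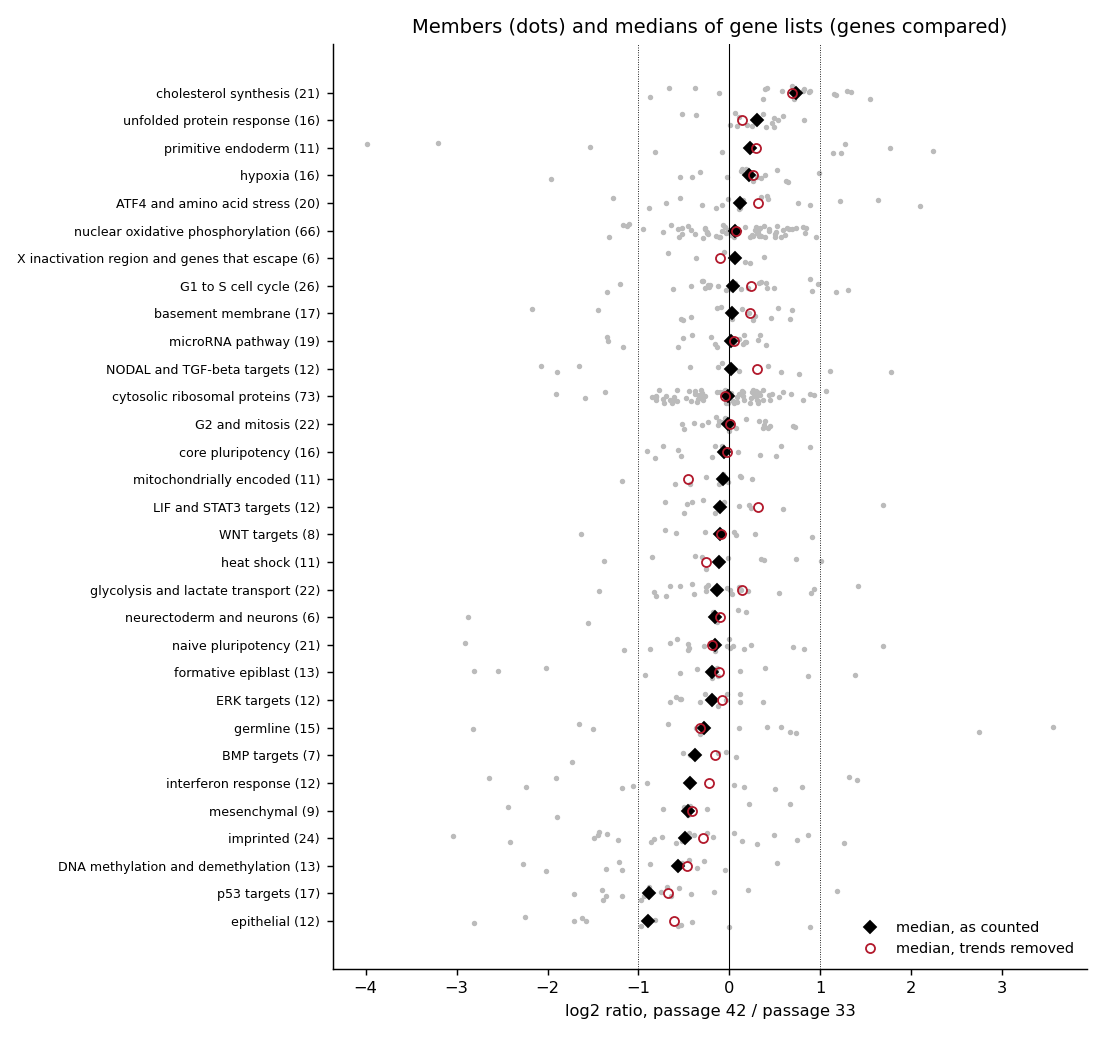
Log2 ratio of passage 42 to passage 33 (horizontal axis) of the genes of each list with at least 5 genes compared. Grey dots are genes, black diamonds medians as counted and red circles medians with trends removed, and dotted lines mark 2-fold. As counted, cholesterol synthesis lies highest, at 0.73, and epithelial genes lowest, at -0.89. With trends removed, p53 targets (-0.67) lie below epithelial genes (-0.61).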

How the data were processed

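Counts per gene were deposited by the authors for each library as raw whole numbers, 43629 Ensembl identifiers each. Reads were aligned with STAR 2.4.2a and counted with featureCounts 1.4.5-p1 on mm10, per the submitters' processing notes, from a reverse-stranded poly(A) protocol, per the labels. The annotation release and the treatment of multiply matched reads are not given in the sources used here. A gene name table gave symbols for 97.3% of identifiers, and GENCODE M21 gave position, gene type, transcript GC content and exon length.

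CPM is the count per 1000000 counts of the library. Log2 ratios of CPM used a prior count of 2 scaled to library size, without further scaling, for genes with at least 10 CPM in either wild-type library. Intervals are exact (Clopper-Pearson, 95%). GC and length trends were removed by lowess (fraction 0.3). With 1 library per passage there was no test, so genes at least 2-fold apart were counted. Reads were not collapsed by molecular identifiers. The rule for named genes took the 10 lowest and 10 highest ratios, the farthest and most abundant genes of the outlying chromosomes, and fixed markers. From each of 38 lists it took up to 3 higher and 3 lower members past 2-fold, or else the most abundant one. Some genes that this rule took are not reported here. Other genes were named after their values were seen. Members and lists were chosen with earlier results of these data known. Promoters came from RefSeq. Scaling factors for the alternatives came from edgeR 4.0.16 in R 4.3.3. The other steps used Python 3.11.15, numpy 2.4.6, pandas 2.3.3, scipy 1.17.1, statsmodels 0.14.6 and matplotlib 3.10.9, and the ratios were tested on simulated data. Alternatives tried were TMM and upper-quartile scaling, other levels and prior counts, protein-coding genes alone, trends removed, genes past 2-fold or chromosomes 1, 15 and Y left out, and each knockout alone.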

Additional observations from a re-analysis of the deposited data

How the results depend on the processing

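Among the autosomes and X, chromosome 1 had the highest and chromosome 15 the lowest median under every scaling, level, prior count, gene type and trend alternative run on all chromosomes; the Y chromosome, with 3 genes, lay lower (-1.85). The chromosome 1 median of 0.55 was 0.69 with TMM and 0.69 with upper-quartile scaling, 0.45 at 1 or more CPM and 0.49 without genes past 2-fold. The chromosome 15 median of -0.70 was -0.56 with TMM, -0.55 with upper-quartile scaling, -0.54 with trends removed and -0.50 without genes past 2-fold. The 227 higher genes became 384 with TMM, 405 with upper-quartile scaling, 510 at 1 or more CPM, 129 at 30 or more CPM and 144 without chromosomes 1, 15 and Y, an alternative chosen after seeing the data. The 761 lower genes became 1902 at 1 or more CPM, 371 at 30 or more CPM and 431 with trends removed. Levels and left-out chromosomes change how many genes are counted; the cause of the other shifts was not tested. The count of genes at which the knockouts were nearer to passage 33 lay between 715 and 810 under the alternatives run on it. No paired analysis was possible because each passage has 1 library. Below 10 CPM counting error widens, and with no replicates it is the only error known.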

Other observations

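Beyond chromosomes 1, 15 and Y, 2 stretches of neighbouring windows, chosen after their values were seen, had medians below those of most other windows with trends removed. On chromosome 6 from 80 to 100 Mb (build mm10), 76 of 88 genes were below 0, with a median of -0.44. Against the knockout mean the median was -0.06 at passage 33 and -0.53 at passage 42. On chromosome 10 from 50 to 70 Mb, 46 of 58 genes were below 0, also with a median of -0.44, but here the median against the knockout mean was 0.48 at passage 33 and 0.01 at passage 42. The first stretch thus set passage 42 apart and the second passage 33. Tet1, for which passage 33 was the high library, lies in the second stretch. Nodal and Srgn lie there too and differ from Tet1. Nodal was lowest at passage 42 (-1.65), and Srgn was highest there (2.24).

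Imprinted genes are expressed from 1 parental allele. Of 24 compared, 1 was at least 2-fold higher at passage 42 and 7 lower, against 2.37% and 7.95% of all genes. Their median was -0.48 (-0.29 with trends removed), and 7 were above 0. The level of 10 CPM was reached at passage 33 alone by 4 of them, Igf2 among these, and at passage 42 alone by 0. For those 4 a lower value at passage 42 was built in. The growth factor gene Igf2 had 14.2 CPM at passage 33, 1.69 CPM at passage 42 and 3.42 and 3.26 CPM in the knockouts (-3.03). Peg10, a gene derived from a retrotransposon, had 970, 346, 401 and 417 CPM (-1.49), so passage 33 was the high library there, and Sfmbt2 had 151, 28.2, 88.4 and 88.2 CPM (-2.41). Zdbf2, on chromosome 1, had 210 and 503 CPM (1.26), and Grb10, an adaptor that restrains growth signalling, 282 and 514 CPM (0.87).

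Genes of the interferon response lay on both sides of 0, and those named here were chosen after their values were seen. The antiviral genes Ifitm3 (144 and 23.1 CPM, -2.64), Oas1a (17.4 and 3.66 CPM, -2.23) and Ddx58, which encodes the RNA sensor RIG-I (90.6 and 24.2 CPM, -1.90), were lower. The antigen presentation genes B2m (7.57 and 18.9 CPM, 1.31) and H2-K1 (14.3 and 37.8 CPM, 1.402) were higher, with the knockouts between the passages. B2m reached 10 CPM at passage 42 alone and Oas1a at passage 33 alone. Of 12 genes 2 were higher and 5 lower, against 2.37% and 7.95% of all genes, with a median of -0.43. Among 15 germline genes 2 were higher, Stra8 and Dmrt1, and 3 lower, against the same shares. Tuba3a, a tubulin of testis with a near-identical copy, was among the lower (73.0 and 10.3 CPM, -2.82).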
